A study of Mus musculus with 8 samples.

Results

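The enzymes described here are 9 proteins of the citrate cycle that work in the mitochondrial matrix, namely Cs, Idh2, Idh3a, Idh3b, Idh3g, Ogdh, Dlst, Fh1 and Mdh2. They were taken by gene symbol, with every probe that the platform annotation gives to them, which made 10 probes and 9 of the 16593 genes named on the array. All 10 probes passed the filter on dim signals, so that all 9 enzymes were among the 8815 genes tested.

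RNA from whole livers of 8 mice on a C57Bl6/Ntac background was measured on Illumina mouse bead arrays, 1 array a mouse. The 4 controls (mice 641, 658, 661 and 663) are labelled wildtype for Mfn1. The 4 Mfn1 LKO mice (637, 638, 651 and 701) lack Mfn1, a fusion protein of the mitochondrial outer membrane, in the liver. The diet of both groups was high in fat, given over 8 weeks, and a fast of 6 hours preceded collection of the liver. AlbCre, Cre recombinase driven by the albumin promoter, stands in the titles of both groups. Albumin is made by hepatocytes, the main target of this Cre, and which cells of these livers lost Mfn1 was not measured here. Whether the controls carried Cre is not stated, and an effect of Cre itself cannot be told apart from that of Mfn1 loss if they did not. Ages and sexes are not given.

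The citrate cycle oxidises the acetyl group of acetyl-CoA and passes the electrons to the respiratory chain as reduced NAD and flavin. In the liver its intermediates also leave the matrix, as citrate for lipid synthesis and as malate for glucose synthesis during fasting. Cs, citrate synthase, opens the cycle. Isocitrate is oxidised by a NAD-linked enzyme built of Idh3a, Idh3b and Idh3g subunits, and separately by Idh2, which yields NADPH used in defence against peroxides. Ogdh and Dlst are the first and the middle component of the 2-oxoglutarate dehydrogenase complex, Fh1 is fumarase and Mdh2 is malate dehydrogenase, which also serves the malate-aspartate shuttle.

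Mfn1 checked the labels. Its log2 signal lay between 8.57 and 8.69 in controls and between 6.95 and 7.22 in Mfn1 LKO livers, and it fell by 1.54 on the log2 scale (SE 0.064, limma adjusted p = 4.05e-06). It was the only gene of 8815 with an adjusted p under 0.05, which is 0.0113% of them. Array medians of the intensity lay between 96.43 and 103.9, and correlations between arrays over all genes were at least 0.985. Of 15 hepatocyte markers 13 passed the filter, while 0 of 5 skeletal muscle markers and 0 of the 4 adipocyte markers with a probe did. Passing the filter is a weak check. The Alb probe, counted among the 13, read only 6.12 to 6.63 in controls, beside a median log2 signal of 6 over all probes.

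Among the 9 enzymes, Mdh2 and Idh2 had the largest differences, with mean signals 1.26-fold and 1.32-fold those of controls. The other 7 had log2 fold changes between -0.096 and 0.082. None of the 9 passed an adjusted p of 0.05. At an unadjusted p under 0.05 there were 2 of the 9, both higher, where 10.6% of all genes tested had such a p, 5.85% had it on the higher side and 4.73% on the lower side. Of the 9 enzymes 7 had a log2 fold change above 0, against 44.6% of all genes. The median over the 9 was 0.047 beside -0.012 over all genes, and without Idh2 and Mdh2 it was 0.042. The list was chosen with earlier results of these data known, so these counts describe it and are no test of it. P-values here set the difference between groups against the spread within groups, and 4 mice a group limit the precision. With 1 array a mouse, that spread holds both mice and arrays.

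**Figure D1:**
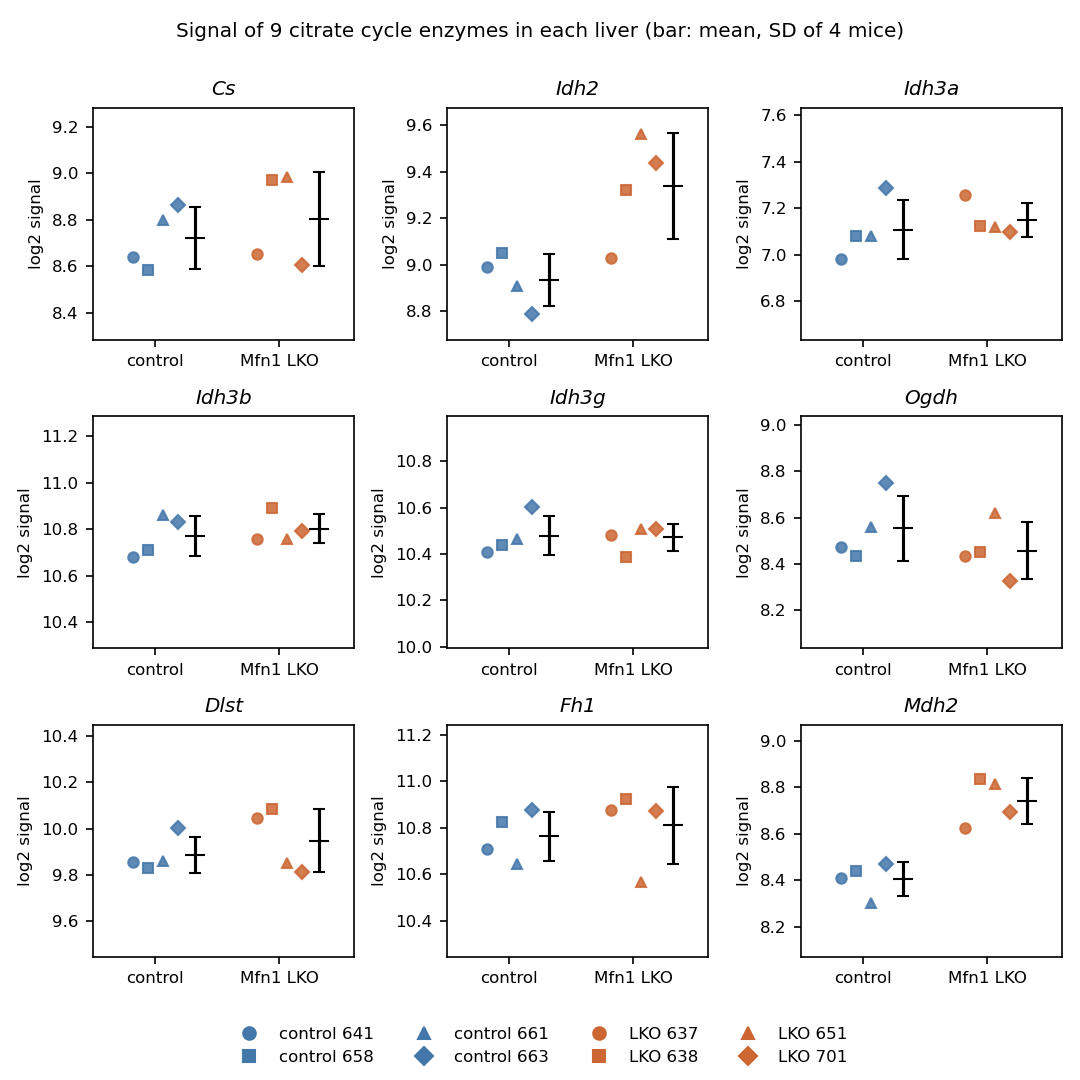
Background-corrected, quantile normalized log2 signal (vertical axis, 1 log2 unit in height in each panel) of each enzyme in each mouse, with the mean and SD of 4 mice beside the points. In Mdh2 the Mfn1 LKO mice, from 8.63 upward, all lie above the controls, which end at 8.47, and the groups overlap in the other 8 panels.

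Mdh2 turns malate into oxaloacetate at the close of the cycle. Its log2 signal was 8.41, 8.44, 8.30 and 8.47 in controls 641, 658, 661 and 663. In Mfn1 LKO mice 637, 638, 651 and 701 it was 8.63, 8.84, 8.81 and 8.69. Every Mfn1 LKO mouse lay above every control, a pattern found on the higher side in 2.92% of all genes. The group means were 8.40 ± 0.072 and 8.74 ± 0.100 (SD, n = 4 each), a difference of 0.34 or 1.26-fold (SE 0.064, 95% interval 0.20 to 0.48). The adjusted p was 0.177 with limma (unadjusted p = 0.000377), the 18th smallest p of 8815 genes. An exact permutation test gave p = 0.0286, the smallest that 4 against 4 mice can give.

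Idh2, the NADP-linked isocitrate dehydrogenase of the matrix, had log2 signals of 8.99, 9.05, 8.91 and 8.79 in the controls in the same order. The Mfn1 LKO mice had 9.03, 9.32, 9.57 and 9.44. Mfn1 LKO mice 638, 651 and 701 lay above all controls, while 637 lay just under control 658. The means were 8.93 ± 0.11 and 9.34 ± 0.23 (SD, n = 4 each), a difference of 0.40 or 1.32-fold (SE 0.11, 95% interval 0.16 to 0.65). Its adjusted p was 0.270 with limma (unadjusted p = 0.00400), and the exact permutation p was 0.0571.

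Whether the groups of Mdh2 overlapped depended on the scaling between arrays. In the intensities as deposited, Mdh2 read 361, 336, 356 and 448 in controls and 393, 541, 559 and 403 in Mfn1 LKO livers. Control 663 exceeded Mfn1 LKO mice 637 and 701 there, so the groups overlapped. Idh2 read 522, 491, 513 and 559 in controls and 508, 746, 911 and 651 in Mfn1 LKO livers. Again 637 lay among the controls and the other Mfn1 LKO mice above them. Control 663 gave the highest deposited intensity for 6 of the 9 enzymes and Mfn1 LKO mouse 651 for the other 3. None of the 9 was free of overlap in these intensities, against 1.41% of all genes on the higher side. Arrays 663 and 651 had the highest 75th percentiles of all probes, 170.5 and 173.5. With arrays scaled to a common median, the Mdh2 groups overlapped too (0.35, adjusted p = 0.933, unadjusted p = 0.0277). Scaled to a common 75th percentile, the groups of Mdh2 (0.33) and of Idh2 (0.40) were both free of overlap. The share of all genes free of overlap was not counted on that scale. The authors' deposited log2 values gave 0.31 for Mdh2, with no overlap, and 0.38 for Idh2. On the higher side 2.92% of all genes had no overlap in these log2 values.

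**Figure D2:**
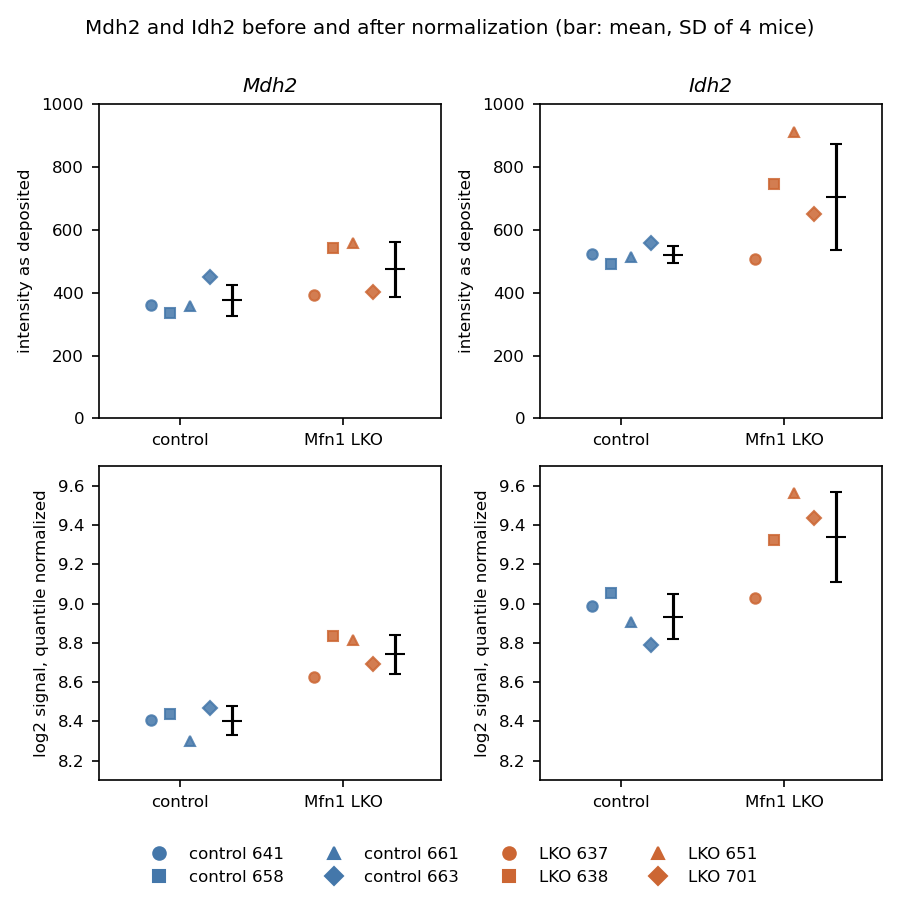
Mdh2 (left) and Idh2 (right) in each mouse as deposited intensity on a linear axis from 0 (top) and as quantile normalized log2 signal (bottom), with the mean and SD of 4 mice. On the intensity axis control 663 reaches 448 for Mdh2, above Mfn1 LKO mice 637 (393) and 701 (403), and on the log2 axis it lies below them.

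Macrophage markers had mostly higher values in the knockout group. Of 20 markers of Kupffer cells and other macrophages 15 were tested, and 14 were higher in Mfn1 LKO livers, against 44.6% of all genes. Of the 15 tested 0 passed an adjusted p of 0.05. Their median log2 fold change was 0.27, which was 0.17 without Mfn1 LKO mouse 701. Their summed signal lay between 3308 and 3939 in controls and between 3629 and 5312 in Mfn1 LKO livers. The Kupffer cell markers Clec4f, Vsig4 and Adgre1 passed the filter on dim signals, and Cd5l did not. Some markers were dim. Fcgr1, Ctss, Cx3cr1 and Timd4 had control means of 6.12, 6.34, 6.35 and 6.35, beside a median log2 signal of 6 over all probes. The mean marker score was -0.20, 0.033, -0.16 and -0.26 in controls 641, 658, 661 and 663. In Mfn1 LKO mice 637, 638, 651 and 701 it was -0.13, 0.070, 0.31 and 0.34. Mouse 637 was thus the lowest of its group for these markers, as it was for Idh2 and for Mdh2. That place was not particular to macrophage markers. The same mouse was lowest of its group in the scores of stellate cell and matrix (-0.22), neutrophil (-0.38) and red cell (-0.27) markers. So it was for lymphocyte (-0.031) and bile duct (-0.050) markers, and not for hepatocyte (0.082) or endothelial (0.021) markers. With the marker score as a covariate the difference of Idh2 was 0.14 (limma adjusted p = 0.737) and that of Mdh2 was 0.30 (adjusted p = 0.672). The same covariate put Dlst at 0.21, Idh3a at 0.13 and Fh1 at 0.12. The part of these cells in the results was not tested. In whole liver, more cells of a type and more RNA per cell cannot be told apart.

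The NAD-linked isocitrate dehydrogenase, whose catalytic subunit is Idh3a, gave values near 0 in all 3 subunits. Idh3a had log2 signals of 6.98, 7.08, 7.08 and 7.29 in controls and 7.26, 7.12, 7.12 and 7.10 in Mfn1 LKO livers. Its difference was 0.042 (95% interval -0.12 to 0.20, limma adjusted p = 0.881). All Mfn1 LKO values fell inside the range of the controls. Idh3b read 10.68, 10.71, 10.86 and 10.83 against 10.76, 10.89, 10.76 and 10.79, a difference of 0.031 (95% interval -0.10 to 0.16). Idh3g read 10.41, 10.44, 10.47 and 10.60 against 10.48, 10.39, 10.51 and 10.51, a difference of -0.0072 (95% interval -0.14 to 0.12), whose sign turned with a common median, cyclic loess or no scaling between arrays. A second Idh3g probe, the only further probe of any of the 9 enzymes, gave -0.0055 on the same scale. In a test of every probe with no filter 0.0117% of 25697 probes passed an adjusted p of 0.05, and none of these 10 did. The pooled SD within groups was 0.076 for Idh3b and 0.073 for Idh3g, at the 29.6th and 25.6th percentile of all genes, so these were among the steadier signals between mice. Over the 3 subunits the 95% intervals of the log2 fold change in array signal ran from -0.14 to 0.20.

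The 2-oxoglutarate dehydrogenase complex gave small values of opposite sign. Ogdh, its first component, read 8.47, 8.43, 8.56 and 8.75 in controls and 8.44, 8.45, 8.62 and 8.33 in Mfn1 LKO livers. The difference was -0.096 (95% interval -0.28 to 0.091, limma adjusted p = 0.739). Dlst, the succinyl-transferring core, read 9.85, 9.83, 9.86 and 10.002 against 10.05, 10.08, 9.85 and 9.81, a difference of 0.061 (95% interval -0.11 to 0.23, limma adjusted p = 0.828). Mice 637 and 638 were above all controls in Dlst, 651 was within their range and 701 below it. Dld, the third component, is shared with other dehydrogenase complexes and is given with the other steps.

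Citrate synthase, whose enzyme activity is often used as a measure of mitochondrial content, was measured here only as RNA. That RNA signal varied more between mice than between groups. Cs read 8.64, 8.58, 8.80 and 8.86 in controls and 8.65, 8.97, 8.98 and 8.61 in Mfn1 LKO livers. Mfn1 LKO mice 638 and 651 exceeded all controls, and the other 2 lay within their range. The difference was 0.082 (95% interval -0.15 to 0.31, limma adjusted p = 0.835). Fh1, which hydrates fumarate to malate, read 10.71, 10.82, 10.65 and 10.88 against 10.88, 10.92, 10.57 and 10.87. Mfn1 LKO mouse 651 had the lowest Fh1 signal of all 8 mice. The difference was 0.047 (95% interval -0.15 to 0.24, limma adjusted p = 0.895).

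**Figure D3:**
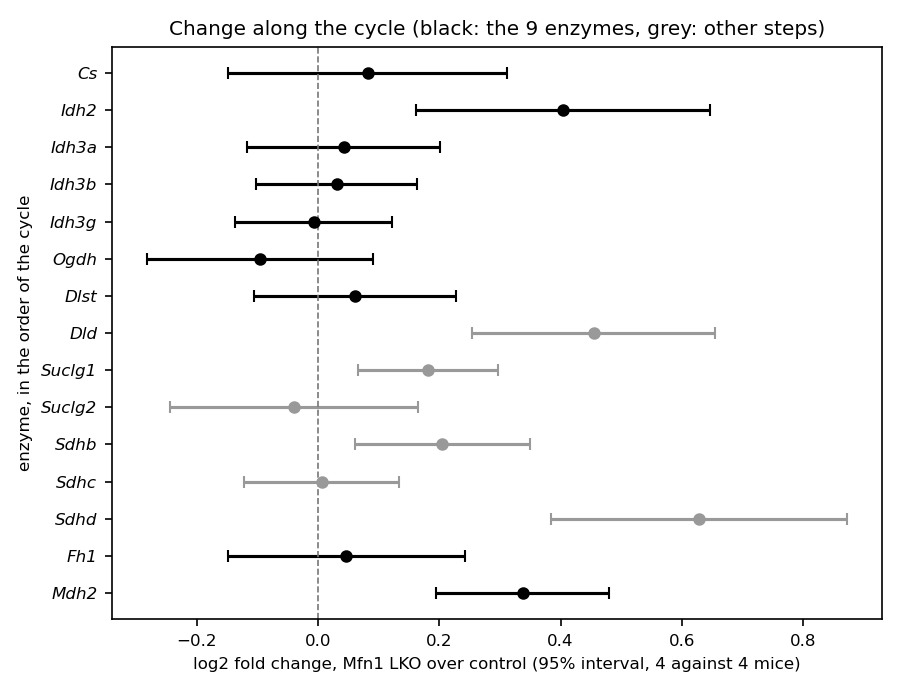
Log2 fold change of Mfn1 LKO over control (horizontal axis) with 95% intervals from limma, 4 against 4 mice, for enzymes in the order of the cycle. Black points are the 9 enzymes, among which the intervals of Idh2 and Mdh2 lie above 0, and grey points are the other steps measured, among which those of Dld, Suclg1, Sdhb and Sdhd do.

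Paired enzymes were compared within each array, 7 pairs in all, to ask whether their changes were unequal. Idh2 was set against Idh1, its cytosolic counterpart, which gave -0.090 (95% interval -0.26 to 0.082). The difference of the 2 changes was 0.49 (SE 0.19, exact permutation p = 0.0571, adjusted p = 0.400 over the 7 pairs). Mdh2 was set against Mdh1, the cytosolic malate dehydrogenase, which gave 0.29 itself (95% interval 0.0044 to 0.57, limma adjusted p = 0.463). The changes of Mdh2 and Mdh1 differed by 0.052 (SE 0.18, exact permutation p = 0.629), with Mfn1 LKO mouse 651 and control 663 far above the others. Idh2 against Idh3a gave 0.36 (SE 0.19, exact permutation p = 0.143), and Ogdh against Dlst gave -0.16 (SE 0.098, exact permutation p = 0.171). The 3 pairs of Idh3 subunits gave 0.012, 0.050 and 0.038, with exact permutation p-values of 0.886, 0.400 and 0.571. None of the 7 passed after adjustment. At these group sizes a pair by itself cannot go below 0.0286, so a lone pair could not pass after adjustment, whatever its values.

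**Figure D4:**
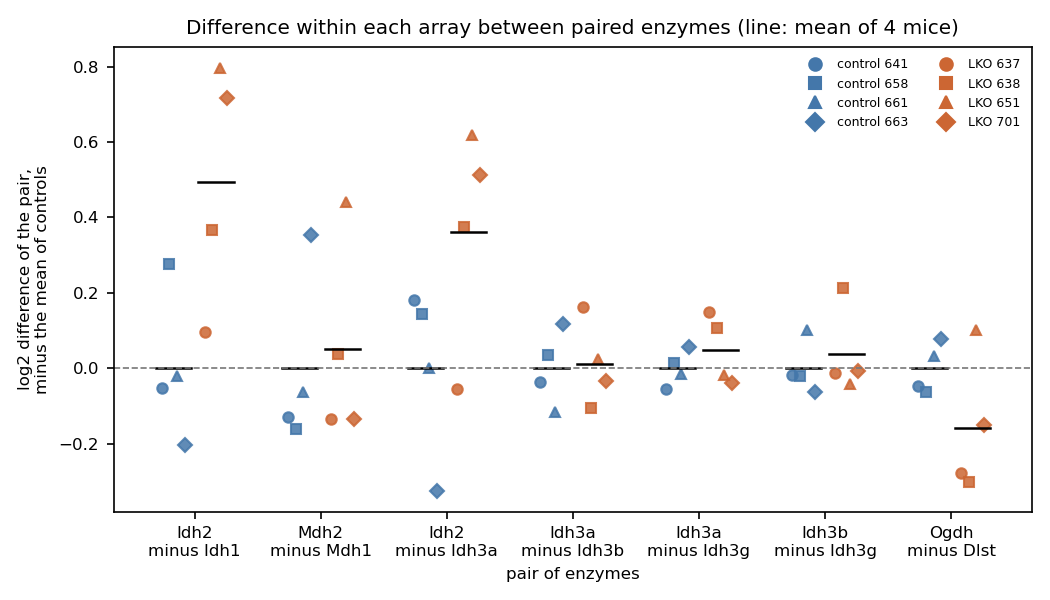
For each pair of enzymes (horizontal axis), the log2 difference within each array, minus the mean of controls (vertical axis), with a line at the mean of 4 mice. Idh2 minus Idh1 shows the widest shift, a mean of 0.49 with 1 of the 4 Mfn1 LKO mice (637, at 0.096) inside the range of the controls, which reach 0.28.

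Of 9 listed genes for the other steps of the cycle 6 were tested, and Sucla2 was below the filter. Of the 6 tested 0 passed an adjusted p of 0.05, 4 had an unadjusted p under 0.05, all higher (5.85% of all genes), and 5 had a log2 fold change above 0 (44.6% of all genes), with a median of 0.19. Sdhd, a membrane anchor of succinate dehydrogenase, read 7.89, 7.84, 7.58 and 7.75 in controls and 8.15, 8.66, 8.30 and 8.46 in Mfn1 LKO livers (difference 0.63). Dld read 7.09, 7.19, 6.81 and 6.91 against 7.33, 7.58, 7.49 and 7.43 (0.45). In both, as in Suclg1 of succinyl-CoA ligase (0.18) and Sdhb, the iron-sulfur subunit of succinate dehydrogenase (0.21), the groups did not overlap, which held on the higher side for 2.92% of all genes. In the deposited intensities the groups of Sdhd and Dld were free of overlap too, where 1.41% of all genes were, while those of Suclg1 and Sdhb overlapped. Suclg2 (-0.039) and Sdhc (0.0060) were near 0. Differences between subunits of these enzymes were not tested.

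Outside the mitochondrial cycle, 6 of 9 cytosolic counterparts and paralogues were tested, with a median of 0.25, 5 higher, against 44.6% of all genes, and 3 higher at an unadjusted p under 0.05, against 5.85%. The median was 0.087 without Mfn1 LKO mouse 638, 0.15 without 651 and 0.060 with no filter on dim signals. The 3 were Dhtkd1, a matrix paralogue of Ogdh (0.22), Aco1, the cytosolic aconitase (0.29), and Mdh1. Dhtkd1 was dim, with controls between 5.99 and 6.11 beside a median log2 signal of 6 over all probes. The malic enzyme Me1 gave 0.45, with Mfn1 LKO mice 638 and 651 at 9.56 and 9.49 and all other mice between 8.53 and 8.70. Of 14 genes for the entry and exit of carbon 9 were tested, with a median of 0.0017. Slc25a10, the dicarboxylate carrier that exchanges malate and succinate for phosphate, gave 0.26 (limma adjusted p = 0.287). Its groups did not overlap after quantile normalization, as in 2.92% of all genes on the higher side, but did in the deposited intensities. Slc25a1, the citrate carrier (0.11), Glud1 (-0.097) and the pyruvate carboxylase gene Pcx (-0.081) followed.

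Mitochondrial proteins outside the cycle had a median of 0.0065 over 13 of 16 listed genes. The matrix chaperones Hspe1 (0.51) and Hspd1 (0.27), the outer membrane channel Vdac2 (0.25) and cytochrome c, Cycs (0.25), were on the higher side at an unadjusted p under 0.05, where 5.85% of all genes were, and the channel Vdac3 (-0.13, chosen after its value was seen) was on the lower side, where 4.73% were. Of 14 regulators of mitochondrial genes 12 were tested, with a median of -0.042 and 0 at an unadjusted p under 0.05, beside 10.6% of all genes. The 4 with the smallest p were the coactivator Ppargc1a (-0.14), the deacetylase Sirt3 (-0.093), Gabpa (-0.088) and the fatty acid receptor Ppara (-0.089). None of the genes in these lists passed an adjusted p of 0.05.

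The 5 genes whose profile over the 8 mice was most like that of Mdh2, by the root mean square difference of centred log2 signals, were Plekha3 (0.064), Cox20 (0.072), Marchf8 (0.075), Prxl2a (0.075) and Coq2 (0.076). Cox20 assists the assembly of cytochrome c oxidase, and Coq2 acts in the synthesis of ubiquinone. The roles of the others are not described, and a shared theme was not tested. Fold changes of the 5 genes were between 0.24 and 0.31 on the log2 scale, and none passed an adjusted p of 0.05. Values near that of Mdh2 follow from the way these genes were picked. Of the other citrate cycle enzymes Idh2 came closest to Mdh2, at 0.14 as the 458th nearest gene, and Ogdh was the farthest at 0.24.

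Promoter windows, 250 bases before to 50 after a start site, were at hand for 8 of the 9 enzymes in RefSeq sequences of GRCm38.p6, 13 windows in all, 6 of them for Ogdh. They were searched on both strands for 3 short motifs, the core site of estrogen-related receptors (AAGGTCA), the core of NRF1 sites (GCATGCG) and the core of ETS family sites such as those of GABPA (CCGGAAG). Estrogen-related receptors, NRF1 and GABPA are known as regulators of nuclear genes for mitochondrial proteins. The windows of Mdh2 and Idh2, the enzymes with the largest differences, come first, and all letters are in lower case because none of the 3 motifs is in them. Mdh2 lies at chr5:135778399-135778698 on the plus strand and Idh2 at chr7:80115301-80115600 on the minus strand.
Mdh2: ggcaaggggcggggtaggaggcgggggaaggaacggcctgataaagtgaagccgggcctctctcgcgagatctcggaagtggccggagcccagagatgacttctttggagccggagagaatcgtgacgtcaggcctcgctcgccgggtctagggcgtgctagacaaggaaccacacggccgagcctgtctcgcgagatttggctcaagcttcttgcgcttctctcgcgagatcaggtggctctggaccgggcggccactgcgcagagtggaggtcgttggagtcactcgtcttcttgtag
Idh2: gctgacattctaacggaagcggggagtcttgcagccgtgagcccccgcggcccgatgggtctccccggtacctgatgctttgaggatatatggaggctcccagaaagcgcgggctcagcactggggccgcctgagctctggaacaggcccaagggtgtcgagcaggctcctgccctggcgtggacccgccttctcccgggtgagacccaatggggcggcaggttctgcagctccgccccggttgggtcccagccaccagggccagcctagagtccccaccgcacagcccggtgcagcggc
Some windows that hold a motif, from enzymes with differences near 0, follow with motif letters in capitals. The windows of Cs and Fh1, whose differences were also near 0, hold none of the 3 motifs and are not printed. The same is true of some Ogdh windows. Idh3b lies at chr2:130284402-130284701 on the minus strand and Idh3g at chrX:73786848-73787147 on the minus strand, each with 1 ETS core. The Ogdh window at chr11:6291920-6292219, plus strand, holds 1 core site of estrogen-related receptors.
Idh3b: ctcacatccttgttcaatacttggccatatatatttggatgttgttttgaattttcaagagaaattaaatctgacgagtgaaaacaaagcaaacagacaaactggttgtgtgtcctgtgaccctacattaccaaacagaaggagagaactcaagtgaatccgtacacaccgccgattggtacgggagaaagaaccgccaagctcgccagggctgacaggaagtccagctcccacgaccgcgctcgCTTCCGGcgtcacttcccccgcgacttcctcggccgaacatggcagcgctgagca
Idh3g: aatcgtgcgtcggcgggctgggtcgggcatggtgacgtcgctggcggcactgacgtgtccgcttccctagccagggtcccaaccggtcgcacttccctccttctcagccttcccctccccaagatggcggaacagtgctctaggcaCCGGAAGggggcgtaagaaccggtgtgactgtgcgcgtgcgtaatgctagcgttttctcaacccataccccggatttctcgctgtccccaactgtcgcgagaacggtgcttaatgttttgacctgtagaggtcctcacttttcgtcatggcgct
Ogdh: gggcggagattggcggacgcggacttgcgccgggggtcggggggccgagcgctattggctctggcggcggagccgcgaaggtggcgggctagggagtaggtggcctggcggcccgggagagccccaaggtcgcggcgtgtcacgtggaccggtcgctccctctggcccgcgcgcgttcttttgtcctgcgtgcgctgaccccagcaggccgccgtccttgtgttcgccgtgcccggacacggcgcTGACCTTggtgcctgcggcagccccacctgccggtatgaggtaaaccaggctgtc

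The ETS core was in 3 of the 13 windows, those of Idh3b, Idh3g and Dlst. It was in 8.86% of all 32851 windows of that length and in 11.56% of the 21263 windows of protein-coding genes. The core site of estrogen-related receptors was in 1 window of Ogdh, in 4.72% of all windows and in 4.08% of protein-coding windows. The NRF1 core was in 2 overlapping windows of Ogdh, read once on each strand at the same place. It was in 3.58% of all windows and in 4.44% of protein-coding windows. A match is a run of letters and no measure of binding, and no match says only that these letters are absent from the window. The CpG dinucleotide, frequent in promoters of widely used genes, occurred 27 times in the Mdh2 window and 20 times in that of Idh2, beside a median of 13.0 over windows of protein-coding genes. Idh3g had 27 and Dlst 28.

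**Figure D5:**
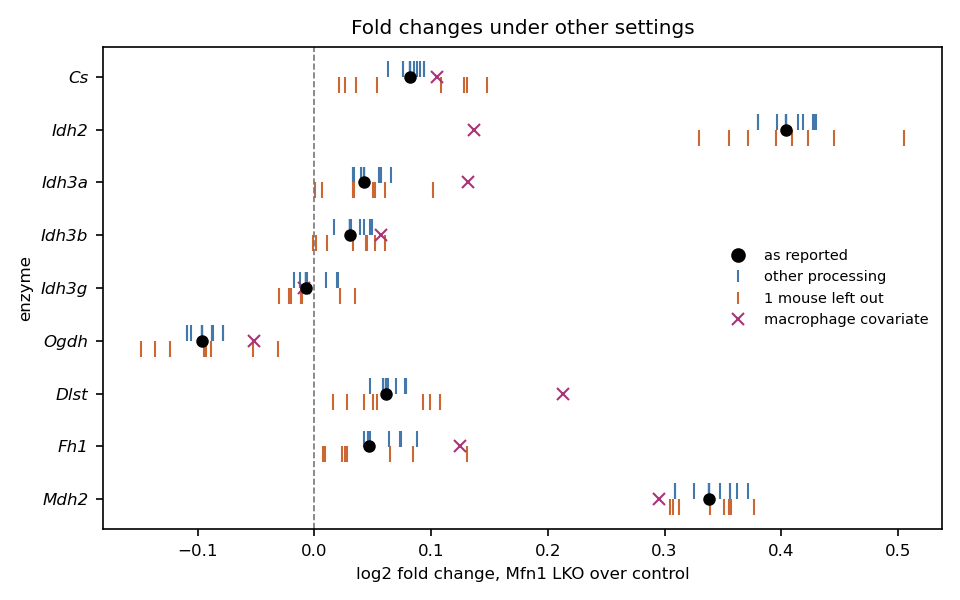
Log2 fold change (horizontal axis) of each enzyme as reported (black), under other processing (blue ticks), with 1 mouse left out (orange ticks) and with the macrophage marker score as a covariate (crosses). Mdh2 stays between 0.30 and 0.38, Idh2 drops to 0.14 with the covariate, and Idh3g lies on both sides of 0.

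Leaving out 1 mouse at a time left Mdh2 between 0.30 and 0.38. Idh2 lay between 0.33 and 0.51. Without Mfn1 LKO mouse 637 the Idh2 groups did not overlap, the value was 0.51 and the limma adjusted p was 0.139. Without control 658 the Idh2 groups did not overlap either (0.45). Both follow from the choice of mouse, because the overlap came only from 637 lying under 658. Without control 663 the groups of Idh3a did not overlap (0.10). The share of all genes free of overlap was not counted in these fits. In none of these fits, nor in 14 other settings, did any of the 9 enzymes pass an adjusted p of 0.05.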

How the data were processed

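Total RNA of 8 livers was isolated with the RNAdvanced kit and turned into biotinylated RNA by TotalPrep amplification, per the labels' protocols. For the arrays the authors deposited a linear intensity for each of 25697 probes, not background-subtracted, and log2 values of the same arrays. These log2 values lay within 0.00662 of quantile normalized log2 intensities, and the scanner software is not given in the sources used here. The intensities went through normexp background correction in limma (offset 50), then log2 and quantile normalization. A higher offset makes fold changes of dim genes smaller. Idh3a, the dimmest enzyme, was 0.042 here, 0.057 with an offset of 16 and 0.033 with no background correction. A probe was kept if 4 or more of the 8 arrays had it above the array's median (12755 probes), and the brightest probe of each gene was taken.

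Groups came from the sample titles. The gene test was the moderated test of limma 3.58.1 (lmFit, eBayes; R 4.3.3), two-sided, with p-values adjusted by Benjamini-Hochberg over 8815 genes. Exact permutation tests were two-sided over 70 arrangements. The gene test was run on simulated data, and the permutation test was checked on a made-up set of values whose groups did not overlap. Symbols came from GEO's platform annotation (23978 probes named, 1719 not), of which 23962 matched a RefSeq table (GRCm38.p6) by gene ID. Named genes were the 9 enzymes, Mfn1, the 4 members with the smallest p of each pathway list and the 5 profiles nearest to the enzyme with the smallest p. A list's score is the mean over its members of the log2 signal centred on the 8 arrays. The enzymes and lists were chosen with earlier results of these data known. Plots were made in Python 3.11.15 (matplotlib 3.10.9).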

Additional observations from a re-analysis of the deposited data

Results flagged for a closer look

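In 62 groups of 4 mice (10 probes, Mfn1, the list scores and the paired differences) 5 held a mouse far from the other 3 by Dixon's ratio, where chance gives about 1 in 20. Mfn1 LKO mouse 637 had an Idh3a log2 signal of 7.26, with the other 3 between 7.10 and 7.12. Mfn1 LKO mouse 651 had an Fh1 log2 signal of 10.57, with the others between 10.87 and 10.92. The score of the other citrate cycle steps was 0.015 in Mfn1 LKO mouse 637 and between 0.15 and 0.16 in the others. Mfn1 LKO mouse 638 had a difference of Idh3b minus Idh3g of 0.21 above the control mean, with the others between -0.042 and -0.0067. The score of 3 red cell markers was 0.058 in control 641 and between -0.16 and -0.12 in the other controls.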

How the results depend on the processing

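None of the 7 pairs passed an adjusted p of 0.05 under any setting tried. To pass, most of the pairs would have had to reach the floor of 0.0286 together, so little can be read from this. None of the 9 enzymes or of their 10 probes passed an adjusted p of 0.05 under any setting, and 7 or 8 of the 9 enzymes were higher in each. Their median log2 fold change was 0.12 with the macrophage score as a covariate and lay between 0.022 and 0.099 with 1 mouse left out. The number of genes past the threshold was 2 with no filter or with array weights, 3 with every probe tested, and 1 to 3 with 1 mouse left out. Idh3g was 0.010 with a common median, 0.020 with cyclic loess and 0.019 with no scaling between arrays, an alternative chosen after seeing the data. With 1 mouse left out, values crossed 0 for Idh3g (-0.031 to 0.035), Idh3b (-0.0011 to 0.061), Mdh2 minus Mdh1 (-0.078 to 0.17), Idh3a minus Idh3b (-0.038 to 0.052) and Idh3b minus Idh3g (-0.023 to 0.072), and for the medians of the lists on entry and exit of carbon (-0.039 to 0.040) and mitochondrial proteins outside the cycle (-0.033 to 0.031), and the cause was not tested. The adjusted p of Mdh2 lay between 0.125 and 1.00 over all settings. The covariate gives no exact test of the pairs and was not run for them. No paired analysis was possible because the groups share no mouse number. Idh3a, the dimmest enzyme, had deposited intensities between 156 and 212, and its distance from background was not measured.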

Other observations

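Of the other cell type markers, neutrophil genes had a median log2 fold change of 0.32 (5 tested), red cell genes 0.052 (3), lymphocyte genes 0.047 (4), stellate cell and matrix genes 0.040 (10), hepatocyte genes 0.027 (13), bile duct genes 0.022 (2) and endothelial genes 0.013 (10). The pancreatic gene Cela1 gave 0.071. None of their genes passed an adjusted p of 0.05. The neutrophil score was 0.90 in Mfn1 LKO mouse 701, between -0.38 and 0.22 in the other Mfn1 LKO mice and between -0.40 and 0.30 in controls, and without 701 the median of these genes was 0.10.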
